A study of Homo sapiens with 6 samples.

Results

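The miRNAs described here are 7 mature sequences known from work on colorectal tumours, in which their levels are raised: hsa-miR-21-5p, hsa-miR-31-5p, hsa-miR-135b-5p, hsa-miR-224-5p, and the 3 strands of the miR-183 cluster, hsa-miR-183-5p, hsa-miR-96-5p and hsa-miR-182-5p (the prefix for human is left out below). They were taken by name from the 2588 mature miRNA entries of each deposited table, and all 7 names were present. The tables come from exosomes of HCT116, an established human colorectal carcinoma cell line. Cells had been microporated with a control siRNA (siCTL, 3 libraries) or with an siRNA against PRDX3, which encodes a mitochondrial peroxiredoxin (siPRDX3, 3 libraries), for 40 h. Exosomes were then collected over 24 h in medium whose serum had been depleted of nanoparticles. The groups share the cell line, the culture medium and the exosome kit and differ in the siRNA; no label says whether each library stems from its own culture, and p-values therefore reflect a spread among libraries that could be technical.

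A miRNA is cut from a hairpin precursor whose 5′ and 3′ arms can each yield a mature strand, named 5p and 3p, and bases 2 to 8 of the mature strand, the seed, pair with target mRNAs. miR-21 is among the best known miRNAs of carcinomas and represses the tumour suppressor PDCD4; miR-135b has been described as a repressor of APC, the gatekeeper gene of the intestinal epithelium. The miR-183 cluster is transcribed as 1 precursor, is abundant in sensory organs, and has been described in epithelial tumours, where miR-96 and miR-182 repress FOXO transcription factors. Tumour cells release such miRNAs in exosomes, small vesicles that also occur in serum.

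The mature sequences below show which members are related by seed. They are RefSeq entries on GRCh38.p14, found by name for all 7, written 5′ to 3′ with the seed in capitals.
hsa-miR-21-5p: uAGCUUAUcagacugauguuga
hsa-miR-31-5p: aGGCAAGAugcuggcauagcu
hsa-miR-135b-5p: uAUGGCUUuucauuccuauguga
hsa-miR-224-5p: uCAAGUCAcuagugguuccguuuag
hsa-miR-183-5p: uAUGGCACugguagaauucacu
hsa-miR-96-5p: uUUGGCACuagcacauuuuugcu
hsa-miR-182-5p: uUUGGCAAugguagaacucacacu

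No pair of the 7 shares a whole seed. With positions counted from 1 at the 5′ end, the seeds of miR-183-5p and miR-96-5p differ by A2U, those of miR-96-5p and miR-182-5p by C8A, and those of miR-183-5p and miR-182-5p by both A2U and C8A. miR-96-5p and miR-182-5p have their first 7 bases in common, and miR-135b-5p and miR-183-5p, from different chromosomes, their first 6. Of the 7 sequences, miR-31-5p is the only one that begins with A; the others begin with U. They are 21 to 25 bases long with a GC content of 34.8% to 52.4% (median 40.9%), against a median of 52.2% over the 69 tested miRNAs that have a sequence in the table. A small-RNA read spans the whole mature strand, so shares of reads were compared between members without division by length.

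In GENCODE v29 on GRCh38, MIR21 lies on chromosome 17 (59841266 to 59841337, plus strand) and overlaps an exon of VMP1. MIR31 is intronic in the non-coding gene MIR31HG on chromosome 9 (21512115 to 21512185, minus strand). MIR135B is intronic in LEMD1 on chromosome 1 (205448302 to 205448398, minus strand). MIR224 lies on chromosome X (151958578 to 151958658, minus strand) and overlaps an annotated exon of GABRE, with MIR452 in the same gene 969 bases away. MIR183 (129774905 to 129775014), MIR96 (129774692 to 129774769) and MIR182 (129770383 to 129770492) lie on the minus strand of chromosome 7 and overlap no other annotated gene; 135 bases separate MIR183 from MIR96, and 4199 separate MIR96 from MIR182. Each of the 7 mature strands has 1 locus in the RefSeq table and no miRNA entry on the opposite strand, so the table lists no antisense or duplicate entry with which its reads could be divided. The authors' own build is not known here, and none of these positions entered the read counts.

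The deposited values are log2 levels from which whole reads could be recovered, as described under processing. The siCTL libraries 1, 2 and 3 summed to 40146, 80950 and 124735 miRNA reads, the siPRDX3 libraries to 230946, 96660 and 70678. A count of 0 in a library allows a share of up to 0.00747% in siCTL 1 and of up to 0.0013% in siPRDX3 1; intervals and limits of this kind cover counting error only, as PCR copies of 1 molecule cannot be recognised here. In such bulk libraries, fewer vesicles of a kind and fewer copies of a miRNA per vesicle cannot be told apart. The entry miR-4451 took 49.4%, 76.9% and 16.4% of the siCTL libraries and 11.8%, 47.7% and 39.95% of the siPRDX3 libraries. siCTL 1 and siCTL 2 stood apart from the other libraries: over the 80 miRNAs with enough reads to test, their log2 levels correlated with those of siCTL 3 at Pearson's r of 0.22 and 0.33, while siCTL 3 correlated with the siPRDX3 libraries at 0.58 to 0.77 (across miRNAs, which are not independent replicates). The separation was not equal for all libraries: siCTL 1 and siCTL 2 correlated with siPRDX3 2 at 0.41 and 0.43, and with siPRDX3 1 and 3 at 0.15 to 0.21. Fold changes are therefore given with and without siCTL 1 and siCTL 2. These libraries hold no mRNA, so the PRDX3 knockdown could not be checked.

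Of the 10 epithelial and intestinal miRNAs used to check the labelled cell type, such as those of the miR-200 family, 8 had reads, with a summed share of 0.00747% to 1.16% in siCTL and of 0.0114% to 0.305% in siPRDX3; miR-429 and miR-205-5p were at 0. The summed share of these markers was lowest in siCTL 1 and siPRDX3 2, with 3 and 11 reads. Red-cell miRNAs (4 of 5 with reads) took 4.15% to 5.58% in siCTL and 1.09% to 3.54% in siPRDX3, and liver miRNAs (2 of 2) took 0.0593% to 5.35% and 2.44% to 9.63%. Leukocyte and platelet markers (3 of 6 with reads) did not exceed 0.0168% in siCTL and 0.406% in siPRDX3, fibroblast markers (1 of 5) stayed at or below 0.00707%, and endothelial ones (1 of 2) at or below 0.218%. The cultures are labelled as the HCT116 line alone. Where these marker reads came from, and their part in the levels below, was not tested.

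As a group, the 7 colorectal tumour miRNAs made up a small and uneven part of the exosomal reads. They were read 40 times in siCTL 1, 91 times in siCTL 2 and 2050 times in siCTL 3, and 4275, 183 and 394 times in the siPRDX3 libraries. As shares these are 0.0996% (exact 95% Clopper-Pearson interval 0.0712 to 0.136), 0.112% (0.0905 to 0.138) and 1.64% (1.57 to 1.72) in siCTL. In siPRDX3 they are 1.85% (1.797 to 1.91), 0.189% (0.163 to 0.219) and 0.557% (0.504 to 0.615). siCTL 3 and siPRDX3 1 were high and the other 4 libraries low, so the groups overlapped. The means were 0.619% ± 0.888 for the siCTL group and 0.866% ± 0.873 for the siPRDX3 group (SD, n = 3 each), and the difference of 0.247 percentage points was smaller than either SD. It turned negative, to −0.78, without siCTL 1 and siCTL 2. With miR-4451 left out of the totals the shares were 0.197%, 0.486% and 1.97% in siCTL and 2.099%, 0.362% and 0.928% in siPRDX3, which again put siCTL 3 and siPRDX3 1 on top.

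**Figure D1:**
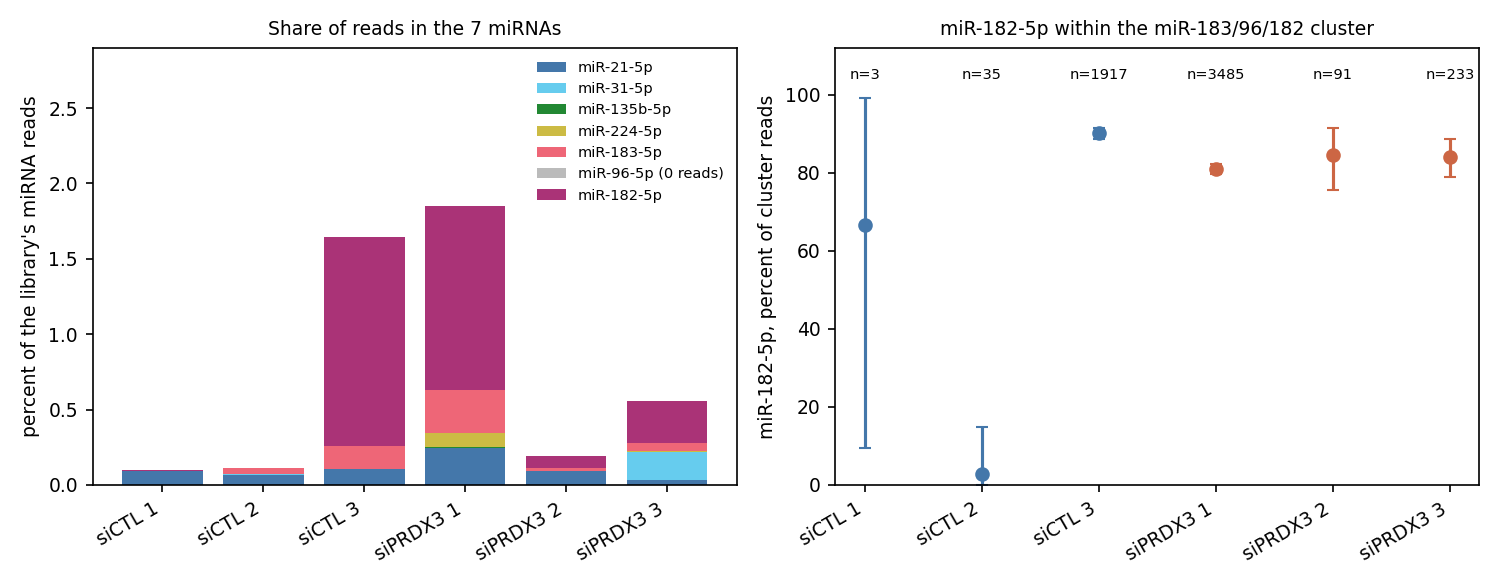
Left, percent of each library's miRNA reads taken by each of the 7 miRNAs, stacked; right, miR-182-5p as a percent of the reads of the miR-183 cluster in each library, with exact 95% Clopper-Pearson intervals and the number of cluster reads (n). The stacks of siCTL 3 (1.64%) and siPRDX3 1 (1.85%) stand above the other 4 libraries, and siCTL 2 stands apart on the right with 2.86%.

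The leading member was not the same in every library. miR-21-5p led in siCTL 1, siCTL 2 and siPRDX3 2, with 92.5%, 60.4% and 50.3% of the members' reads. miR-182-5p led in siCTL 3, siPRDX3 1 and siPRDX3 3, with 84.2%, 66.01% and 49.7%. Averaged over the 6 libraries, the order of shares was miR-182-5p (0.495% ± 0.636), miR-21-5p (0.106% ± 0.0716), miR-183-5p (0.0918% ± 0.109), miR-31-5p (0.0316% ± 0.0753), miR-224-5p (0.0172% ± 0.0376), miR-135b-5p (0.000577% ± 0.00141) and miR-96-5p, which had no read (SD, n = 6). Neighbours in this order did not differ beyond their spread. The first 3 in this order, which were read in every library, were also compared library by library. miR-21-5p exceeded miR-183-5p in 3 of 6 libraries and miR-182-5p in 3 of 6. Of these 3 pairs, only the pair within the cluster kept 1 order in nearly all libraries, with miR-182-5p above miR-183-5p in 5 of 6.

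miR-21-5p was the steadiest member. It was read 37, 55 and 133 times in the siCTL libraries 1, 2 and 3 and 559, 92 and 23 times in the siPRDX3 libraries 1, 2 and 3, which are shares of 0.0922%, 0.0679% and 0.107%, and of 0.242%, 0.0952% and 0.0325%. It was thus the 24th to 82nd most abundant entry of a library, with its lowest place in siPRDX3 3. Its deposited log2 levels were 9.86, 10.10 and 10.05 in siCTL and 10.70, 9.35 and 7.28 in siPRDX3. The siCTL levels lay within the range of the siPRDX3 levels, so the groups overlapped.

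The siCTL libraries, which differed widely in most miRNAs, were alike for miR-21-5p. Its SD in siCTL was 0.13 on the deposited log2 scale, the smallest of the 80 tested miRNAs, whose median SD was 3.58. On log2 CPM (reads scaled to the library's total) it was 0.33, also the smallest, against a median of 3.67. The 37 reads of siCTL 1 alone carry a counting SD of 0.24 on the log2 scale, which is more than the SD of the deposited levels over the 3 siCTL libraries. In siPRDX3 its SD was 1.72 on the deposited scale, the 46th smallest of the 80 and above their median of 1.43, and 1.45 on log2 CPM, the 39th smallest and below their median of 1.49. This was noticed after the values were seen and is given without a test.

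The cluster members miR-182-5p and miR-183-5p differed far more between libraries of the same group. miR-182-5p was read 2, 1 and 1727 times in the siCTL libraries and 2822, 77 and 196 times in the siPRDX3 libraries. Its shares were 0.00498%, 0.00124% and 1.38% in siCTL, and 1.22%, 0.0797% and 0.277% in siPRDX3. It was the 15th most abundant entry in siCTL 3 and the 18th in siPRDX3 1, but ranked 59th in siCTL 1 and, at 1 read, 110th in siCTL 2. siCTL 3 exceeded every siPRDX3 library and the other siCTL libraries lay below all of them.

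The gap within siCTL was wide beside the counting intervals. At the share of siCTL 3, siCTL 1 would have held 555.8 reads of miR-182-5p and siCTL 2 1121, against the 2 and 1 found. The exact 95% intervals were 0.000603% to 0.018% in siCTL 1, 3.13e-05% to 0.00688% in siCTL 2 and 1.32% to 1.45% in siCTL 3. The epithelial markers named above moved in a like way between siCTL 1 and siCTL 3 (3 against 1447 reads). From siCTL 3 to siPRDX3 1 their summed share went from 1.16% to 0.305%, while that of miR-182-5p went from 1.38% to 1.22%. The markers did not move together in this step. The share of miR-215-5p went from 0.465% to 0.000866% and that of miR-192-5p from 0.176% to 0.00217%, while that of miR-200b-3p rose from 0.000802% to 0.0935%. The part of these markers in the result was not tested. In siCTL 2 their 141 reads included 137 of miR-203a-3p, while miR-200c-3p was read 0, 0 and 450 times in the siCTL and 253, 1 and 190 times in the siPRDX3 libraries.

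miR-183-5p was read 1, 34 and 190 times in the siCTL libraries and 663, 14 and 37 times in the siPRDX3 libraries. Its shares were 0.00249%, 0.042% and 0.152% in siCTL, and 0.287%, 0.0145% and 0.0524% in siPRDX3. Its deposited log2 levels were 4.70, 9.41 and 10.57 in siCTL and 10.95, 6.65 and 7.96 in siPRDX3, so the lowest level was in siCTL 1, the highest in siPRDX3 1, and the groups overlapped. siCTL 2 was low in miR-182-5p but not in miR-183-5p, for which it lay above siPRDX3 2.

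The balance of these cluster mates was similar in 4 libraries and different in siCTL 2. miR-182-5p made up 90.1% of the cluster's reads in siCTL 3 (exact 95% Clopper-Pearson interval 88.7 to 91.4), and 80.98% (79.6 to 82.3), 84.6% (75.5 to 91.3) and 84.1% (78.8 to 88.6) in siPRDX3 1, 2 and 3. In siCTL 2 it made up 2.86% (0.0723 to 14.9) of 35 reads. In siCTL 1 the cluster had 3 reads in all, too few to place the balance (66.7%, interval 9.43 to 99.2). The interval of siCTL 3 lay above that of siPRDX3 1 and overlapped those of siPRDX3 2 and 3. In these terms the reads of miR-182-5p per read of miR-183-5p were 0.0294 in siCTL 2, 9.09 in siCTL 3 and 4.26, 5.5 and 5.30 in siPRDX3 1, 2 and 3.

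The third cluster mate, miR-96-5p, whose seed lies 1 base from that of each of the others, had no read in any library. With 0 of 644115 reads its share could be up to 0.000466%, and relative to the 5764 reads of its cluster mates up to 0.052%. In the cluster as a whole, 1 mature strand thus took most reads in 4 libraries, 1 took fewer, and 1 was not detectable at this depth.

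**Figure D2:**
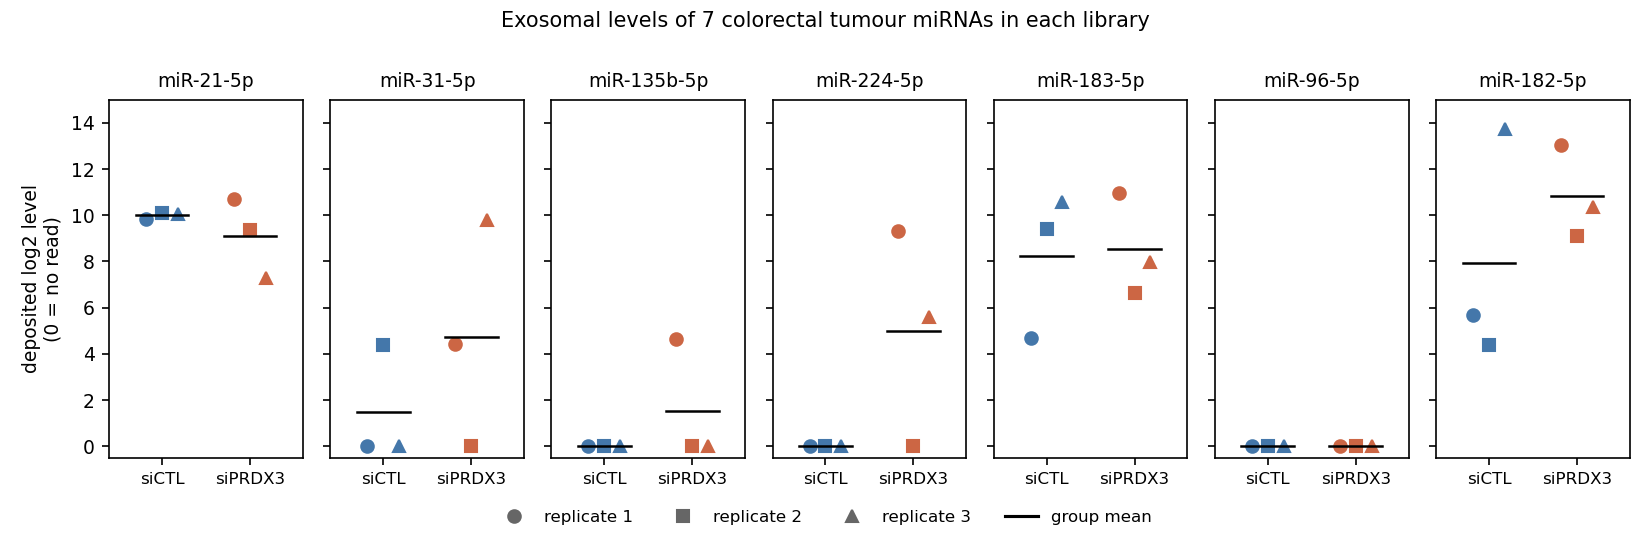
Deposited log2 level (vertical axis, 0 meaning no read) of each of the 7 miRNAs in the siCTL (blue) and siPRDX3 (orange) libraries; symbols mark the replicate number and bars the group means. miR-21-5p is tight in siCTL (9.86 to 10.10), miR-182-5p spans 4.39 to 13.75 there, and miR-31-5p, miR-135b-5p and miR-224-5p have reads in 3, 1 and 2 libraries.

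miR-31-5p, miR-224-5p and miR-135b-5p were each carried by 1 library. miR-31-5p was read 0, 1 and 0 times in the siCTL libraries and 7, 0 and 131 times in the siPRDX3 libraries, so that siPRDX3 3 held 94.2% of its 139 reads (a share of 0.185% there, interval 0.155 to 0.22). miR-224-5p had no read in siCTL and 216, 0 and 7 in siPRDX3, with 96.9% of its 223 reads in siPRDX3 1. miR-135b-5p had 8 reads, all in siPRDX3 1. All but 1 read of these 3 miRNAs thus came from siPRDX3 libraries. They came mostly from siPRDX3 3 for miR-31-5p and from siPRDX3 1 for miR-224-5p and miR-135b-5p. How many of all entries with reads were likewise one-sided was not counted, so this split is not read as a difference between the groups.

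The reads found can be set beside those due if every library had the share of the highest one. At the share of siPRDX3 3, 74.4, 150 and 231 reads of miR-31-5p would be due in the siCTL libraries, and 428 and 179 in siPRDX3 1 and 2. At the share of siPRDX3 1, 37.5, 75.7 and 117 reads of miR-224-5p would be due in the siCTL libraries, and 90.4 and 66.1 in siPRDX3 2 and 3. For miR-135b-5p the same calculation gives 1.39 to 4.32 reads per library, where 0 were found in each. The libraries of 1 group differed as much as the groups did, since siPRDX3 2 had no read of any of the 3. In siPRDX3 3, which carried miR-31-5p, 1 leukocyte and platelet marker, miR-146a-5p (287 reads), was also at its highest. The same held for 1 endothelial marker, miR-126-3p (154 reads). All other markers of these lists had 0 reads in that library. The part of these markers in the miR-31-5p reads was not tested.

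All reads of these hairpins came from the 5p arm. The 3p strands of the 7 hairpins had 0 reads in every library, against 4825 reads of miR-182-5p, 939 of miR-183-5p and 899 of miR-21-5p. A count of 0 allows up to 0.0622%, 0.319% and 0.334% of these numbers. Such one-sidedness was common in the tables: among the 101 hairpins with both arms listed and at least 100 reads on 1 arm, 64 (63.4%) had no read on the other. The hairpins of MIR182 and MIR96 are shown because the first gave the most reads of the members and the second none; capitals mark the 5p strand, and the 3p strand, in lower case, covers bases 67 to 87 in MIR182 and 52 to 73 in MIR96.
MIR182: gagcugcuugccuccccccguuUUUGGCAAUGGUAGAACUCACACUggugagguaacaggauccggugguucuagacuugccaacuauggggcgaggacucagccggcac
MIR96: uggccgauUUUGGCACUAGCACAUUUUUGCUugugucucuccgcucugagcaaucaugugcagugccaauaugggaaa

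Strands related to the members by seed or position were not seen either. miR-590-5p has the seed of miR-21-5p, miR-135a-5p that of miR-135b-5p, and miR-1271-5p that of miR-96-5p, and each had 0 reads. Both strands of MIR452, the neighbour of MIR224 in GABRE, had 0 reads, so the 216 reads of miR-224-5p in siPRDX3 1 came without reads of its neighbour.

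In the comparison of siPRDX3 with siCTL no member passed the test. Testing required that at least 3 libraries reached a CPM of 113, which corresponds to 10 reads at the median depth, with at least 15 reads in all. miR-21-5p, miR-182-5p and miR-183-5p passed this filter, and the remaining 4 members did not. limma on the deposited log2 levels called 0 of the 80 tested miRNAs at an adjusted p below 0.05 (Benjamini-Hochberg), which is 0% of them. It called 0 of the 3 members. limma-voom called 0 or 1 of the 80 depending on the entries used for its scaling, and that 1 was not a member. With either scaling, 12 of the 80 had an unadjusted limma-voom p below 0.05. At an unadjusted p below 0.05 limma gave 6 of the 80 (7.5%) and 0 of the 3 members. The groups did not overlap for 13 of the 80 on the deposited scale (16.2%), of which 6 lay higher in siPRDX3 (7.5%) and 7 higher in siCTL (8.75%), and for 12 as shares of reads (15%). They overlapped for each of the 3 members on both scales.

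For miR-182-5p the log2 fold change was 2.89 with SE 2.71 (95% interval −3.49 to 9.28, limma adjusted p = 0.59), the siCTL level being 7.94 ± 5.07 and the siPRDX3 level 10.83 ± 2.01 (SD, n = 3 each). miR-183-5p stood at 0.29 with SE 2.18 (−4.84 to 5.43, limma adjusted p = 0.92), from 8.23 ± 3.11 and 8.52 ± 2.20. miR-21-5p stood at −0.89 with SE 1.53 (−4.50 to 2.71, limma adjusted p = 0.737), from 10.00 ± 0.13 and 9.11 ± 1.72. These fold changes are on the log2(value + 1) scale, and their intervals include changes of several log2 units in either direction. Over all 80 miRNAs the median fold change was 1.72, so miR-182-5p lay 1.17 above it, and miR-183-5p and miR-21-5p lay 1.43 and 2.62 below it. These places rested on siCTL 1 and siCTL 2 and on the filter. Without siCTL 1 and siCTL 2 the median was −1.15. miR-21-5p then lay 0.21 above it, and miR-183-5p and miR-182-5p lay 0.90 and 1.77 below it. Under the stricter filter (at least 5 libraries at that level) the median was −0.41, with miR-183-5p 0.71 above it and miR-21-5p 0.48 below it. Without a filter the median was 0.17. There miR-182-5p and miR-183-5p lay 2.72 and 0.12 above it, and miR-21-5p lay 1.07 below it.

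**Figure D3:**
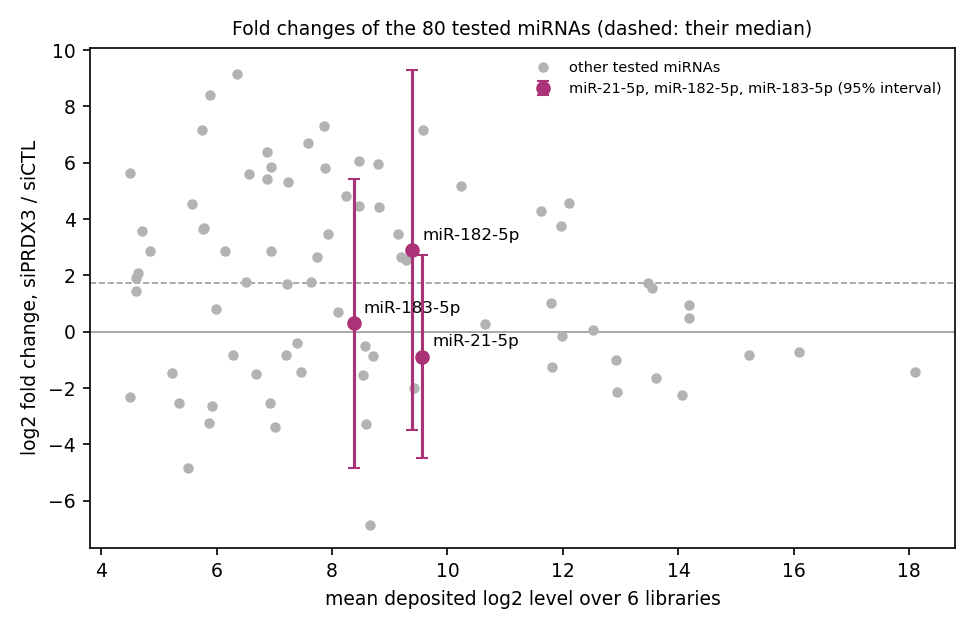
Log2 fold change of siPRDX3 over siCTL (vertical axis) against the mean deposited log2 level (horizontal axis) for the 80 tested miRNAs; the 3 tested members are coloured, with 95% intervals from limma. All 3 intervals cross 0. miR-183-5p (0.29) and miR-21-5p (−0.89) lie below the median of 1.72, which becomes −1.15 without siCTL 1 and siCTL 2.

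The value for miR-182-5p rested on single siCTL libraries. Without siCTL 1 and siCTL 2 it was −2.92 (SE 1.87, limma adjusted p = 0.797), with siCTL 3 then assumed to vary like the siPRDX3 libraries. Without siCTL 3 it was 5.80 (SE 1.64, limma adjusted p = 0.0409), the only setting of those tried in which a member passed. In that setting 20 of the 80 miRNAs passed, 19 of them higher in siPRDX3, and the median fold change was 3.001. The filter there was still that of all 6 libraries. Among the libraries left, miR-182-5p reached the filter level in siPRDX3 only, the group where it was high, so its pass there carries no weight. Every alternative besides gave miR-182-5p an adjusted p of 0.342 to 0.926 (limma or limma-voom). miR-183-5p turned to −2.05 without siCTL 1 and siCTL 2, −1.47 without siCTL 1 alone and −0.92 without siPRDX3 1. miR-21-5p hardly moved with the siCTL libraries: it was −0.94 without siCTL 1 and siCTL 2 and −0.87 without siCTL 3. It moved with siPRDX3 3 and with the scaling, to 0.02 without that library and to 0.06 under library totals, where the median of all 80 rose to 2.57.

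**Figure D4:**
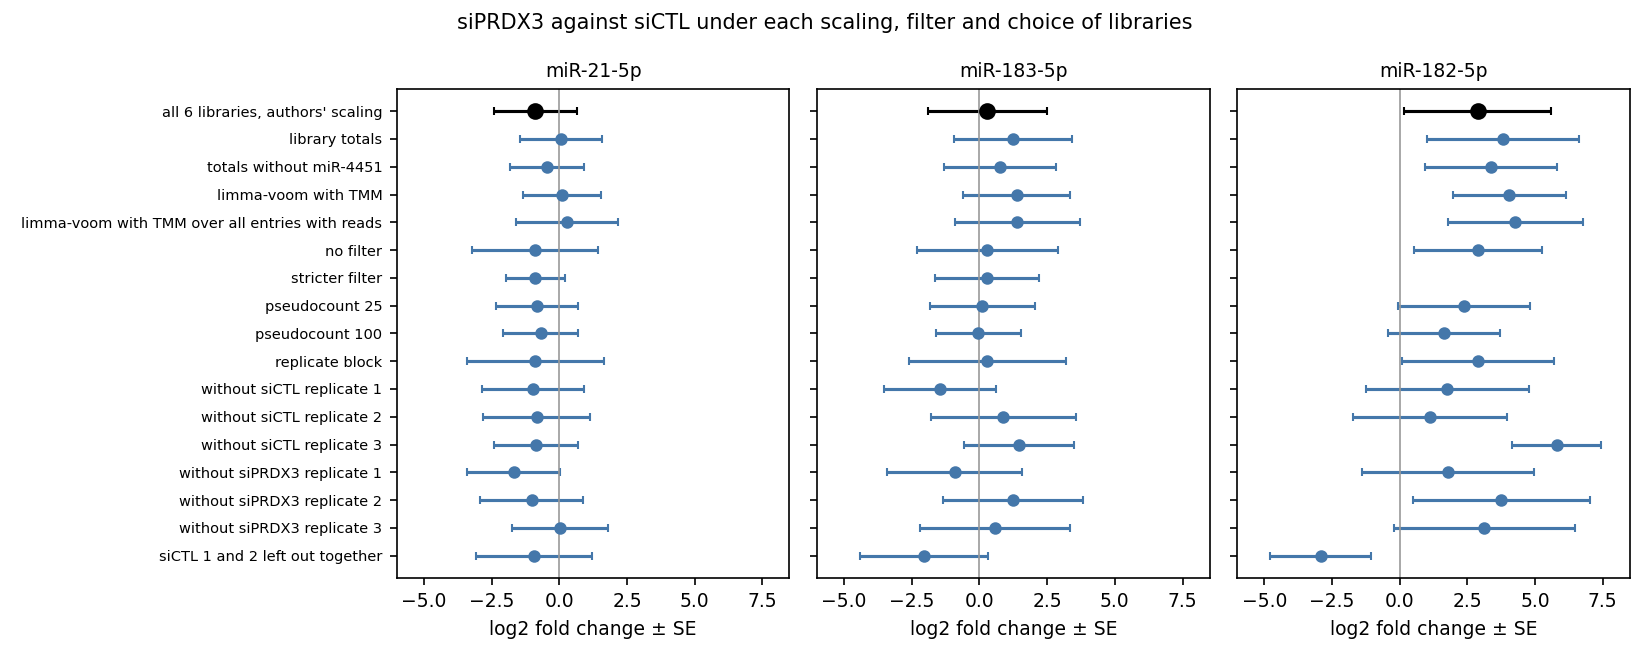
Log2 fold change with its SE (horizontal axis) of miR-21-5p, miR-183-5p and miR-182-5p under each scaling, filter and choice of libraries (vertical axis); black marks all 6 libraries on the authors' scaling. miR-182-5p runs from −2.92 without siCTL 1 and siCTL 2 to 5.80 without siCTL 3, and has no value under the stricter filter, which it did not pass.

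Most of the other miRNAs described in colorectal tumours had no read, which was also so for the tables at large. Of all 2588 entries, 686 had reads and 80 were tested. Of 19 further miRNAs described as raised there, 6 had reads, 2 were tested and 0 passed. These 2 were miR-92a-3p, of the miR-17 to miR-92 cluster and also encoded in a related cluster, read 78, 31 and 331 times in the siCTL and 943, 262 and 158 times in the siPRDX3 libraries, and miR-25-3p, read 0, 0 and 263 times against 887, 446 and 22 times. Their log2 fold changes were 0.26 with SE 1.33 and 6.39 with SE 3.34, and −0.58 and −0.97 without siCTL 1 and siCTL 2. miR-17-5p, miR-18a-5p, miR-19a-3p, miR-19b-3p and miR-20a-5p, which belong to the miR-17 to miR-92 cluster, each had 0 reads. Of 15 miRNAs described as lowered in these tumours, 6 had reads, 2 were tested and 0 passed. They were miR-375, read 1, 1 and 291 times in the siCTL and 1295, 1 and 240 times in the siPRDX3 libraries, and miR-378a-3p, read 0, 816 and 44 times against 67, 0 and 5 times. Their log2 fold changes were 1.77 with SE 3.04 and −3.23 with SE 3.89, and −2.65 and −4.21 without siCTL 1 and siCTL 2. The smooth muscle miRNA miR-145-5p had 0 reads.

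The tested miRNAs whose pattern over the 6 libraries was nearest to each member were then found. The measure was the mean absolute difference between log2 levels, each centred on its own mean. miR-182-5p was nearest to miR-92b-3p (0.93, read 1, 6 and 674 times in the siCTL and 1796, 79 and 168 times in the siPRDX3 libraries) and let-7e-5p (1.34). miR-183-5p was nearest to let-7i-5p (0.61, with 3, 42 and 185 against 364, 21 and 29) and miR-1246 (0.90). Its cluster mate miR-182-5p came 22nd of 79, at 2.02, where the median over the 79 was 2.67. miR-21-5p was nearest to let-7b-5p (0.52, with 3593, 3627 and 13555 against 31184, 6640 and 5500) and miR-148a-3p (0.61), against a median of 3.03. Likeness over 6 libraries that share a scaling is a description only.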

How the data were processed

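Small-RNA libraries of exosomal RNA from HCT116 cells, 3 per group, were analysed from 1 deposited table per library; groups and replicate numbers follow the sample titles. The authors deposited log2 values with 3 decimals, per the file headers 1 column per library. Bowtie2 and bedtools 2.25.0 are named, with no role, in the submitters' processing notes; nothing used here states the build, the miRNA annotation or the scaling. The values were read as log2(x + 1). Within a library x lay on whole multiples of 1 step, the worth of 1 read (25.04, 19.97 and 7.97 in siCTL 1, 2 and 3; 2.97, 7.09 and 6.72 in siPRDX3 1, 2 and 3), for 100% of values of up to 100 reads within 0.1 read; larger counts are approximate. The main test was limma 3.58.1 (R 4.3.3, mean-variance trend, two-sided, no covariates) on the deposited log2 values of all 80 miRNAs that passed the filter; alternatives covered scaling, pseudocounts of 25 and 100, no filter and a stricter one (5 libraries), limma-voom with TMM (trimmed mean of M-values), a replicate block and leaving out libraries. The tests were checked on simulated data whose counts were set to vary less than those of the siCTL libraries. That check does not extend to libraries this uneven. Shares carry exact 95% Clopper-Pearson intervals, and a count of 0 allows 3 reads. Named miRNAs were all members, their other arms, neighbours and seed relatives, up to 3 members by share from lists of miRNAs described as raised or lowered in colorectal tumours, and the 2 nearest tested miRNAs of each tested member; others were named after their values were seen. The members and lists were chosen with earlier results of these data known. Of the series' design text, a sentence that names other cells and another siRNA contradicts the titles and was not followed.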

Additional observations from a re-analysis of the deposited data

How the results depend on the processing

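None of the settings tried called miR-21-5p or miR-183-5p (limma adjusted p between 0.595 and 0.991). The sign of miR-21-5p turned to 0.056 with library totals as the scaling, 0.11 for limma-voom with TMM, 0.29 with TMM over all entries with reads (chosen after seeing the data) and 0.022 without siPRDX3 3, with a range of −1.69 to 0.022 over the libraries left out in turn. miR-183-5p turned to −0.043 with a pseudocount of 100 and to −2.05 without siCTL 1 and 2 together, and ranged from −1.47 to 1.46 over single libraries left out. miR-182-5p turned to −2.92 without siCTL 1 and 2 together and ranged from 1.12 to 5.80 over single libraries left out. It passed without siCTL 3 only, where it met the filter level in siPRDX3 libraries alone. It fell to 1.65 with a pseudocount of 100 and did not pass the stricter filter. The number of miRNAs called was 0 in all 6 libraries, 1 under limma-voom with TMM, and 0 to 20 with single libraries left out. The summed share of the members, siPRDX3 minus siCTL, was −0.78 percentage points without siCTL 1 and 2 together and ranged from −0.245 to 0.76 over single libraries left out.

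No label marks same-numbered libraries of the groups as belonging together, so the numbers were not taken as pairs. The correlations of their deviations from the group means were −0.24, 0.18 and 0.14. Libraries with different numbers gave −0.36 to 0.33, so these values cannot decide on pairing. With a replicate block 0 miRNAs passed, and the fold changes of miR-21-5p, miR-183-5p and miR-182-5p were −0.89, 0.29 and 2.89 with SE 2.53, 2.897 and 2.798. Depth limits the balance of the cluster in siCTL 1, which had 3 cluster reads.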
